A study of Mus musculus with 18 samples.

Results

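Small nucleolar RNAs (snoRNAs) are cut out of the introns of longer transcripts, and the 9 noncoding host transcripts described here are Gas5, Zfas1, Snhg1, Snhg3, Snhg5, Snhg6, Snhg8, Snhg12 and Snhg15. They were taken as the rows of the count table whose Ensembl identifiers carry these symbols in the GENCODE annotation of the mouse genome GRCm38, which gave 9 of 48023 genes. The rule uses names and no values, but the choice of these 9 was made with earlier results of these data known. The cells were an immortalized line of murine brown preadipocytes, the undifferentiated precursors of brown fat cells, which carries the SV40 T antigen, and all groups share that background. Cultures received vehicle or FGF6, a secreted paracrine growth factor of the FGF family, at 200 ng/ml for 4, 8 or 24 h. There were 3 RNA libraries in a group and 6 groups (vehicle and FGF6 at each time), 18 libraries in all. The labels do not state whether the libraries of a group came from separate cultures, so the p-values measure the spread between these libraries, which may be technical. All cells derive from 1 immortalized line, and no second line was sequenced here.

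A host transcript carries snoRNAs in its introns and is spliced into an exon-only RNA that, for these 9 genes, codes for no known protein. SnoRNAs of the box C/D class guide ribose methylation of ribosomal RNA, and those of the box H/ACA class guide the conversion of uridine to pseudouridine. Many host genes start transcription at a tract of pyrimidines, a feature of growth-regulated genes of the ribosome, and their spliced RNAs are known targets of nonsense-mediated decay, which removes RNAs whose translation stops early. Gas5 took its name from its accumulation in growth-arrested cells, which makes the class of interest in cells given a growth factor.

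Of the 9 transcripts, 8 had enough counts to be tested, and 7 of these 8 rose with FGF6 at 4 h and all 8 at 8 h and at 24 h (false discovery rate under 0.05, edgeR's quasi-likelihood test over 15071 genes). None fell at any time. Among all genes tested, 28.6% rose and 34.2% fell at 4 h (62.8% called), 32.4% rose and 38.4% fell at 8 h (70.8%), and 35.9% rose and 37.9% fell at 24 h (73.8%). The median log2 fold change of the 8 transcripts was 0.45 at 4 h, 0.89 at 8 h and 0.74 at 24 h, beside medians of -0.05, -0.05 and -0.02 over all genes tested. In the scaled counts defined below, the 3 FGF6 libraries of each of the 8 lay above the 3 vehicle libraries at every time. The same held for 30.1%, 34.2% and 36.7% of all genes tested at 4, 8 and 24 h. For Snhg8 at 4 h this separation rested on the scaling. The opposite separation held for 36.1%, 39.6% and 38.1% of all genes and for none of the 8. With 3 libraries against 3, an exact permutation test of a single gene cannot give a two-sided p under 0.1, so the adjusted p-values below rest on the model that shares information across genes. As these are bulk libraries, a change in the RNA per cell and a change in the mix of cells cannot be told apart.

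The library totals ranged from 24327816 to 33471980 counts, and the TMM normalization factors from 0.951 to 1.05. Values are given in CPM, counts per 1000000 of the TMM-scaled library total. At this depth 3 counts correspond to 0.0905 to 0.126 CPM, and such a floor covers counting error only. The preadipocyte labels were checked against markers. Of 10 preadipocyte and brown-lineage genes 9 were tested (Dlk1 was at 0 in all libraries), and their summed level was 1390 to 1415 CPM with vehicle and 1040 to 1109 CPM with FGF6 at 4 h, 1388 to 1419 and 846 to 949 CPM at 8 h, and 1504 to 1538 and 462 to 492 CPM at 24 h. At 24 h the fall of this sum was that of Pdgfrb (693 to 134 CPM, group means), Pdgfra (280 to 91.5), Ly6a (243 to 32.3), Pparg (78.5 to 19.0), Cebpa (49.3 to 11.1) and Ebf2 (54.8 to 42.1), while Cd34 (16.5 to 43.0) and Prdm16 (6.02 to 9.08) were higher with FGF6 and the group means of Cebpb were 99.2 and 94.1 with overlapping libraries. Of 8 genes of mature brown fat cells, Ucp1, Cidea, Adipoq and Dio2 stayed under 1 CPM in all libraries. Ucp1 had 17, 19 and 25 counts with FGF6 at 24 h and 0 in every library of the other groups. Adipoq had 17, 23 and 13 counts with vehicle at 24 h and 0 in each library with FGF6. The sum over the 8, nearly all of it Fabp4, was 152 to 175 CPM with vehicle and 64.6 to 71.3 CPM with FGF6 at 24 h.

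Genes that mark other cell types were low but also moved with FGF6. At 24 h, vehicle against FGF6, the summed levels were 5.74 to 6.73 against 1.60 to 2.13 CPM for 5 myoblast genes, 0.965 to 1.30 against 3.71 to 5.65 CPM for 4 endothelial genes, 5.76 to 6.235 against 3.03 to 3.64 CPM for 4 leukocyte genes and 0.168 to 0.490 against 1.57 to 2.57 CPM for 4 epithelial genes, with no overlap in any of the 4 lists. At 4 h the leukocyte sum was instead higher with FGF6 (10.6 to 11.6 against 16.3 to 16.7 CPM). At 8 h it was higher as well (7.56 to 8.90 against 9.77 to 10.3 CPM). The other lists had the same direction at 4 and 8 h as at 24 h. Over all 18 libraries the sums of the 4 lists reached at most 8.96, 5.65, 16.7 and 2.57 CPM. A few genes carried them, such as Myog (3.57 to 0.364 CPM, group means at 24 h), Myod1 (1.77 to 0.969), Cdh5 (0.0582 to 3.59), Cd68 (5.83 to 3.24), Krt8 (0.126 to 0.907) and Krt18 (0.0234 to 0.873). The myoblast gene Des went from 0.963 to 0.531 CPM and the endothelial gene Kdr from 0.823 to 1.09 CPM. Other members stayed under 1 CPM in all libraries, namely Myf5 (at 0 throughout) and Pax7, Pecam1 and Tek, Ptprc, Adgre1 and Itgam, and Epcam and Cdh1. The part of these marker changes in the results below was not tested.

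**Figure D1:**
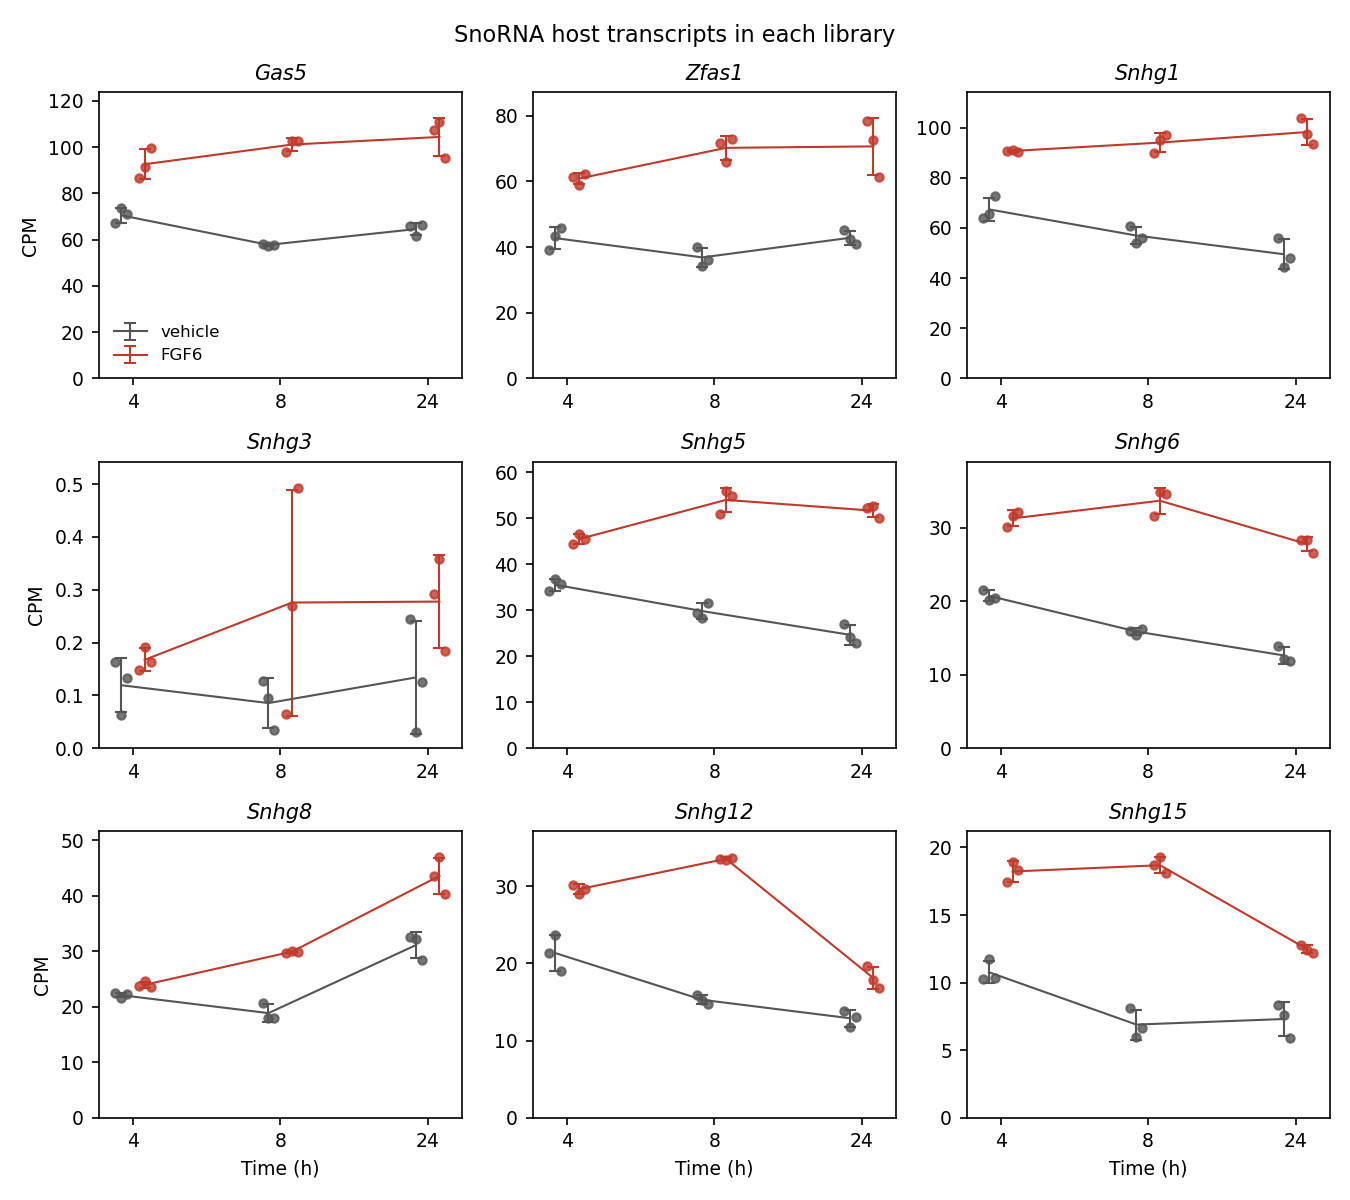
CPM of each of the 9 host transcripts (vertical axes, linear, from 0, with a scale of its own in each panel) in the 18 libraries at 4, 8 and 24 h (horizontal axes, equally spaced categories). Points are libraries, lines join group means, bars are the SD of 3 libraries, grey is vehicle and red is FGF6. In all panels but that of Snhg3, which had 1 to 12 counts in a library, the red points lie above the grey points of the same time.

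To compare genes with each other, CPM was divided by the kilobases of annotated exon. In vehicle-treated cells at 4 h the order of these levels was Snhg8 at 25.9 ± 0.482 CPM per kb (mean ± SD, n = 3), Snhg1 at 22.7 ± 1.54, Snhg5 at 20.6 ± 0.761, Gas5 at 18.8 ± 0.846, Snhg6 at 18.1 ± 0.640, Zfas1 at 14.6 ± 1.19, Snhg12 at 8.88 ± 0.974, Snhg15 at 7.92 ± 0.603 and Snhg3 at 0.121 ± 0.0524. The libraries of Gas5 overlapped with those of Snhg6, its neighbour in this order, and those of Snhg12 with those of Snhg15. The other neighbours did not overlap, and the SD of each level rests on 3 libraries. The exons were merged over all annotated isoforms, including isoforms that retain introns, so the levels of transcripts such as Gas5 with 25 isoforms can be lower per kb than those of the spliced RNA alone. They also include bases shared with other genes, from 8.32% in Snhg5 over 17.8% in Gas5 and 20.9% in Snhg1 to 86.3% in Snhg3. If reads in such bases were dropped, the levels are understated to unequal degrees, and the order may differ.

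The start regions of the transcripts are printed because a pyrimidine tract at the start is the sequence feature this class is known for and because its members moved together. RefSeq (GRCm38.p6) gave start windows for 8 of the 9, Snhg6 being the one without, and 2 starts for Gas5. Each window runs from 10 bases before the start site to 30 bases from it on, 5′ to 3′. Capitals mark a C followed by at least 4 letters that are each C or T, where it begins between 10 bases before and 20 bases after the start, and in Snhg15 the E-box CACGTG.
Gas5, upstream start, chr1:161034591-161034630, plus strand: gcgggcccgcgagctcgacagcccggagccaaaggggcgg
Gas5, downstream start, chr1:161035156-161035195, plus strand: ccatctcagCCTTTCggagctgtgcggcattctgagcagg
Zfas1, chr2:167062924-167062963, plus strand: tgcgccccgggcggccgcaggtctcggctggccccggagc
Snhg1, chr19:8723477-8723516, plus strand: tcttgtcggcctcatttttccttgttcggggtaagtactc
Snhg3, chr4:132353657-132353696, minus strand: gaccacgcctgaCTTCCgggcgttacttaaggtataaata
Snhg5, chr9:88522868-88522907, minus strand: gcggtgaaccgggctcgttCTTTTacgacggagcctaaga
Snhg8, chr3:123508307-123508346, minus strand: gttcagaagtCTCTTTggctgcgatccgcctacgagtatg
Snhg12, chr4:132308668-132308707, plus strand: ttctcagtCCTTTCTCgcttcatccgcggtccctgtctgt
Snhg15, chr11:6528731-6528770, minus strand: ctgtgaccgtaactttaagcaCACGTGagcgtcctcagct

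Such a run was present in 5 of the 8 transcripts, and in 37.6% of all 32851 start windows in the same stretch. Shares here are per window, and the 8 transcripts have 9 windows, of which 5 held a run. As a run must begin with C, the pyrimidine stretch in Snhg1 that begins with t was not counted. The run overlapped or touched the start site itself in Snhg8, Snhg12 and the downstream start of Gas5, and lay inside the transcript in Snhg3 and Snhg5. Within the whole window of 250 bases before to 50 bases after the start, and reading both strands, the E-box was found in 1 of the 8 (Snhg15) and in 7.15% of all windows. The core CCGGAA of ETS factors was found in 2 of the 8 (Snhg3 and Snhg5) and in 14.9% of all windows. In Snhg3 it overlaps the run marked in capitals, and in Snhg5 it lies upstream of the stretch printed here. These are matches of letters in a window and say nothing on binding.

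The hosts of box C/D snoRNAs are Gas5, Zfas1, Snhg1, Snhg5 and Snhg6. Gas5 (ENSMUSG00000053332, chromosome 1, 161034422 to 161038539, plus strand), also known as a decoy for the glucocorticoid receptor, has 10 annotated snoRNA genes inside its span, among them Snord47, Snord78 and 2 overlapping entries for Snord80. In vehicle-treated libraries it stood at 67.2, 73.5 and 70.9 CPM at 4 h, 58.3, 57.3 and 57.6 CPM at 8 h and 65.9, 61.4 and 66.4 CPM at 24 h. In FGF6-treated libraries it stood at 86.7, 91.5 and 99.6 CPM, 98.0, 103 and 102 CPM and 107, 111 and 95.1 CPM at the same times. The 3 vehicle libraries at 8 h were the lowest of the 18, and the FGF6 libraries of different times overlapped. The log2 fold changes were 0.39, 0.81 and 0.70 at 4, 8 and 24 h, each with a standard error of 0.05, and the adjusted p-values were 4.02e-07, 5.58e-13 and 8.13e-12. These and the p-values that follow come from edgeR's test, adjusted over all genes by the Benjamini-Hochberg method.

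Zfas1 (ENSMUSG00000074578, chromosome 2, 167062934 to 167065862, plus strand) hosts Snord12 and 2 annotated snoRNAs without a family name, and starts opposite Znfx1. Its vehicle libraries held 39.0, 43.4 and 45.8 CPM at 4 h, 40.1, 34.3 and 36.1 CPM at 8 h and 45.1, 42.4 and 41.0 CPM at 24 h, against 61.2, 59.0 and 62.4 CPM, 71.7, 66.0 and 73.0 CPM and 78.3, 72.5 and 61.3 CPM with FGF6. The vehicle groups at 4 and 24 h overlapped, while the FGF6 libraries at 24 h were the most spread of the 6 groups. Its log2 fold change was 0.51 at 4 h, 0.93 at 8 h and 0.72 at 24 h, with standard errors of 0.07 each time (adjusted p = 1.08e-06, 2.02e-11 and 1.73e-09).

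Snhg1 (ENSMUSG00000108414, chromosome 19, 8723475 to 8726443, plus strand) holds 8 annotated snoRNA genes, among them Snord22. With vehicle it stood at 64.1, 65.5 and 72.6 CPM at 4 h, 60.6, 54.1 and 56.2 CPM at 8 h and 56.1, 44.4 and 48.1 CPM at 24 h, so that its vehicle mean went from 67.4 ± 4.56 to 49.5 ± 5.99 CPM (SD, n = 3). With FGF6 it held 90.6, 91.2 and 90.2 CPM at 4 h, 89.9, 95.0 and 97.1 CPM at 8 h and 104, 97.4 and 93.5 CPM at 24 h. With vehicle the libraries at 24 h lay below all of those at 4 h, and with FGF6 they lay above them. The log2 change from 4 to 24 h was -0.45 with vehicle (adjusted p = 1.41e-06). With FGF6 it was 0.12 and did not pass (adjusted p = 0.0936). The ratio of FGF6 to vehicle was 1.35 at 4 h, 1.65 at 8 h and 1.99 at 24 h (adjusted p = 1.3e-06, 1.34e-10 and 2.84e-13).

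Snhg5 (ENSMUSG00000097195, chromosome 9, 88521050 to 88522929, minus strand) hosts the box C/D snoRNAs Snord50a and Snord50b. Its vehicle libraries stood at 34.2, 36.8 and 35.7 CPM at 4 h, 29.5, 28.4 and 31.6 CPM at 8 h and 27.0, 24.1 and 22.8 CPM at 24 h. Its FGF6 libraries stood at 44.3, 46.5 and 45.6 CPM at 4 h, 51.0, 56.1 and 55.0 CPM at 8 h and 52.2, 52.8 and 50.1 CPM at 24 h. The vehicle libraries at 24 h lay below all others, and the FGF6 libraries at 8 and 24 h lay above those at 4 h. The ratio of FGF6 to vehicle was 1.28 at 4 h, 1.81 at 8 h and 2.09 at 24 h (adjusted p = 3.27e-06, 3.38e-13 and 5.95e-15).

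Snhg6 (ENSMUSG00000098234, chromosome 1, 9941959 to 9944118, minus strand) hosts a single annotated snoRNA, Snord87. In vehicle it measured 21.6, 20.2 and 20.4 CPM at 4 h, 15.97, 15.4 and 16.2 CPM at 8 h and 13.9, 12.1 and 11.8 CPM at 24 h, and in FGF6 30.1, 31.6 and 32.2 CPM, 31.6, 34.8 and 34.6 CPM and 28.3, 28.4 and 26.6 CPM. The groups were far apart at each time, and both arms were lowest at 24 h. Its log2 fold change at 24 h was 1.14 (standard error 0.06, adjusted p = 1.47e-14), the highest of the 8 at that time, after 0.59 at 4 h and 1.08 at 8 h (adjusted p = 1.82e-09 and 1.47e-14).

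The remaining 4 transcripts carry mainly or solely box H/ACA snoRNAs. Snhg8 (ENSMUSG00000104960, chromosome 3, 123507552 to 123508404, minus strand) is a short host of Snora24. Its fold changes were the lowest of the 8 at each time, although those of Snhg1 at 8 h and Snhg12 at 24 h lay within 1 standard error of it. Vehicle libraries stood at 22.4, 21.6 and 22.3 CPM at 4 h, 20.7, 17.96 and 17.9 CPM at 8 h and 32.6, 32.3 and 28.4 CPM at 24 h, and FGF6 libraries at 23.7, 24.6 and 23.6 CPM, 29.8, 30.1 and 29.95 CPM and 43.5, 46.9 and 40.4 CPM. At 4 h the groups were close and did not overlap in CPM, but they overlapped when counts were divided by the unscaled library totals. The log2 fold change of 0.12 (standard error 0.06) did not pass the threshold (adjusted p = 0.119). At that threshold it passed in 1 of 15 settings, main fit included, namely the fit of only the 4 h libraries (0.16, adjusted p = 0.0203). The looser threshold of the study, a false discovery rate of 0.25, was not among these 15 settings. The main fit passed that looser threshold. Over these settings the log2 fold change at 4 h ran from 0.016 to 0.1644, and the adjusted p reached 0.851. The log2 fold change was 0.67 at 8 h (adjusted p = 1.19e-09) and 0.48 at 24 h (adjusted p = 7e-08). Snhg8 was the one transcript called higher at 24 h than at 4 h in both arms.

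Snhg12 (ENSMUSG00000086290, chromosome 4, 132308623 to 132311024, plus strand) holds 4 box H/ACA genes, among them Snora44 and Snora61, and the box C/D gene Snord99. It stood at 21.3, 23.7 and 19.0 CPM at 4 h, 15.8, 15.3 and 14.7 CPM at 8 h and 13.9, 11.7 and 13.1 CPM at 24 h with vehicle. With FGF6 it stood at 30.2, 28.9 and 29.7 CPM, 33.5, 33.3 and 33.7 CPM and 19.6, 17.9 and 16.8 CPM, so that its level with FGF6 at 24 h was lower than at either earlier time. Its ratio of FGF6 to vehicle was 1.38 at 4 h, 2.19 at 8 h and 1.41 at 24 h (adjusted p = 1.6e-06, 2.07e-13 and 3.47e-06).

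Snhg15 (ENSMUSG00000085156, chromosome 11, 6525591 to 6528760, minus strand), host of Snora9, had the largest fold change of the 8 at 4 and 8 h. Its vehicle libraries gave 10.2, 11.7 and 10.3 CPM at 4 h, 8.11, 5.94 and 6.64 CPM at 8 h and 8.37, 7.63 and 5.93 CPM at 24 h. The FGF6 libraries gave 17.4, 18.9 and 18.3 CPM, 18.7, 19.3 and 18.1 CPM and 12.8, 12.4 and 12.2 CPM. As in Snhg12, the FGF6 libraries at 24 h lay below those at 4 and 8 h. Its log2 fold changes at 4, 8 and 24 h were 0.76, 1.44 and 0.76, with standard errors of 0.09, 0.10 and 0.10 and adjusted p-values of 8.93e-08, 1.3e-12 and 3.48e-07.

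Snhg3 (ENSMUSG00000085241, chromosome 4, 132348014 to 132353686, minus strand), the host of Snora73a and Snora73b, could not be compared at this depth. It had 5, 2 and 4 counts in the vehicle libraries and 4, 6 and 4 in the FGF6 libraries at 4 h, 4, 3 and 1 and 2, 8 and 12 at 8 h, and 7, 1 and 3 and 8, 10 and 5 at 24 h. The groups overlapped at each time. Without a filter on low counts its log2 fold changes were 0.50, 1.58 and 1.06 at 4, 8 and 24 h, and none passed the threshold (adjusted p = 0.704, 0.063 and 0.230 over 28614 genes). Of its 986 exonic bases, 851 are shared with other genes, 705 of them with Gm17300 on the opposite strand and 135 with Rcc1 on the same strand. How reads in shared bases were counted is not stated, so its level per kb may be understated.

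**Figure D2:**
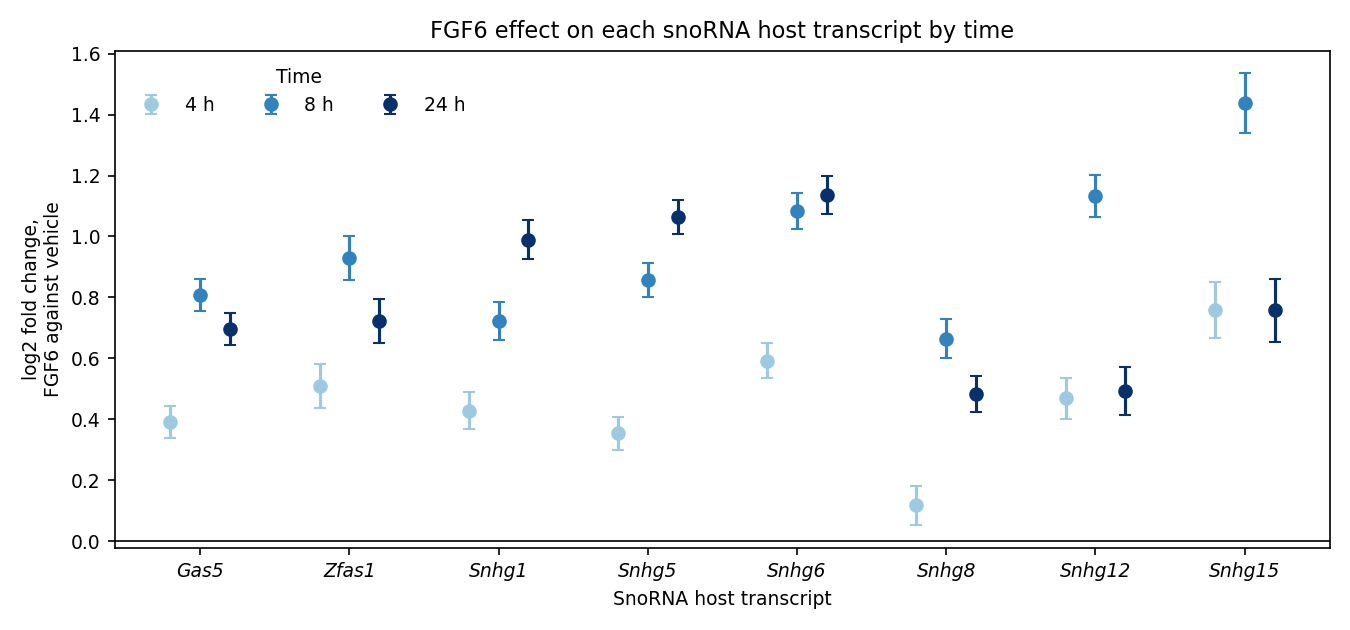
Log2 fold change of FGF6 against vehicle (vertical axis) for the 8 tested host transcripts (horizontal axis) at 4, 8 and 24 h, with bars for 1 standard error from edgeR's model of 3 libraries per group. Every point lies above 0, all 8 are higher at 8 h than at 4 h, and Snhg12 and Snhg15 drop back at 24 h while Snhg1, Snhg5 and Snhg6 have their highest values there.

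The size of the response changed with time. The FGF6 effect was larger at 8 h than at 4 h in all 8 transcripts, tested as an interaction (over all genes tested, 15.5% had a higher and 15.1% a lower value at 8 h, 30.6% together). The 2 arms moved apart over these hours. In vehicle, all 8 fell from 4 to 8 h, with log2 changes of -0.64 to -0.21 and a median of -0.27 (21.7% of all genes fell and 21.2% rose, 43.0% together). With 1 library left out, 7 to 8 were called lower. In the FGF6 arm, 5 of the 8 rose from 4 to 8 h (Gas5, Zfas1, Snhg5, Snhg8 and Snhg12), with a median of 0.15 over the 8 (24.1% of all genes rose and 24.0% fell, 48.2% together). The count of 5 rested on single libraries and became 2 without FGF6 4 h replicate 2 or FGF6 8 h replicate 3, and 3 without FGF6 8 h replicate 2.

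From 4 to 24 h in vehicle, 6 transcripts fell (Gas5, Snhg1, Snhg5, Snhg6, Snhg12 and Snhg15), Snhg8 rose and Zfas1 had a log2 change of 0.00 (adjusted p = 0.969), where 30.0% of all genes fell and 30.9% rose (60.8% together). The steepest of these falls were those of Snhg12 (-0.73, adjusted p = 6.06e-09) and Snhg6 (-0.71, adjusted p = 5.41e-10), and the rise of Snhg8 was 0.50 (adjusted p = 1.93e-07). The fall of Gas5 was small (-0.13, adjusted p = 0.0385), and 5 to 6 transcripts were called lower with 1 library left out. Over the same hours in the FGF6 arm, Gas5, Zfas1, Snhg5 and Snhg8 rose and Snhg6, Snhg12 and Snhg15 fell (35.2% and 36.0% of all genes, 71.2% together). The 4 that rose became 2 when FGF6 4 h replicate 1, FGF6 24 h replicate 1 or FGF6 24 h replicate 2 was left out. The log2 change in the FGF6 arm was 0.86 for Snhg8, -0.71 for Snhg12 and -0.55 for Snhg15 (adjusted p = 3.21e-12, 1.98e-09 and 9.12e-06). The FGF6 effect was larger at 24 h than at 4 h in Gas5, Snhg1, Snhg5, Snhg6 and Snhg8 and in none smaller (28.3% and 25.2% of all genes, 53.5% together). For Snhg12 the difference of the effects was 0.02 (standard error 0.10, adjusted p = 0.868).

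Between 8 and 24 h the effect of FGF6 grew in Snhg1 and Snhg5 and shrank in Snhg12 and Snhg15 (22.6% and 22.5% of all genes tested, 45.1% together). The shrinkage was -0.64 on the log2 scale in Snhg12 and -0.68 in Snhg15, and both kept their direction and call under every alternative setting and with each library left out. The growth of 0.27 in Snhg1 lost its call without vehicle 8 h replicate 1, vehicle 24 h replicate 2 or FGF6 24 h replicate 1 (adjusted p = 0.0547, 0.113 and 0.0727), and without vehicle 24 h replicate 3 it passed with an adjusted p that rounds to 0.05. The growth of 0.21 in Snhg5 lost its call under 3 alternative settings and in 7 of 12 fits with 1 library left out, with a highest adjusted p of 0.171 without vehicle 24 h replicate 3. Gas5, Zfas1, Snhg6 and Snhg8 had differences of -0.11, -0.21, 0.05 and -0.18 that did not pass (adjusted p = 0.231, 0.105, 0.667 and 0.0958). Within vehicle, Gas5, Zfas1 and Snhg8 rose and Snhg1, Snhg5, Snhg6 and Snhg12 fell from 8 to 24 h (25.5% and 23.7% of all genes, 49.2% together). Without vehicle 24 h replicate 1, 1 rose and 4 fell, and without vehicle 24 h replicate 2, 3 rose and 2 fell. Within the FGF6 arm, Snhg8 rose and Snhg6, Snhg12 and Snhg15 fell over the same hours (31.1% and 31.2%, 62.3% together), and these counts held with each library left out.

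Of the tested host transcripts, 3 start within 2000 bases of a protein-coding gene on the opposite strand, and at 24 h none of these 3 neighbours rose with its host. Zfas1 starts 81 bases from Znfx1, which codes for a zinc finger protein, and shares 82 exonic bases with it. Znfx1 stood at 174, 202 and 204 CPM with vehicle and 46.4, 44.7 and 48.7 CPM with FGF6 at 24 h, where Zfas1 was higher with FGF6. Znfx1 fell by 0.94 on the log2 scale at 8 h and by 2.05 at 24 h (adjusted p = 1.55e-09 and 7.08e-16), and its log2 fold change at 4 h was 0.04 (adjusted p = 0.702). If strand was not used in counting, reads from the shared 82 bases cannot be told apart, which is 2.80% of the exonic length of Zfas1.

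Snhg1 starts 106 bases from Slc3a2, which codes for the heavy chain of amino acid transporters, without overlap of their exons. Slc3a2 had 315 ± 2.57 CPM with vehicle and 402 ± 6.98 CPM with FGF6 at 4 h, 197 ± 5.01 and 247 ± 8.87 CPM at 8 h, and 192 ± 1.78 and 166 ± 1.85 CPM at 24 h (mean ± SD, n = 3). It rose with FGF6 at 4 and 8 h, as Snhg1 did, and fell at 24 h, when Snhg1 rose most (log2 fold changes 0.35, 0.32 and -0.21, adjusted p = 2.39e-10, 9.39e-10 and 1.92e-06). Gas5 starts 427 bases from Zbtb37, which codes for a zinc finger and BTB domain protein. Zbtb37 had log2 fold changes of -0.07, -0.11 and -0.04 that did not pass (adjusted p = 0.386, 0.165 and 0.576), and its groups overlapped at each time. Gm17300, the noncoding gene opposite Snhg3, rose with FGF6 at all 3 times (log2 fold changes 0.65, 0.95 and 0.59, adjusted p = 0.000115, 7.4e-07 and 0.0019). Rcc1, named for the bases it shares with Snhg3 and chosen after its values were seen, codes for the chromatin-bound exchange factor of the GTPase Ran and rose as well (0.62, 1.04 and 1.25, adjusted p = 1.14e-11, 3.22e-16 and 8.62e-18).

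**Figure D3:**
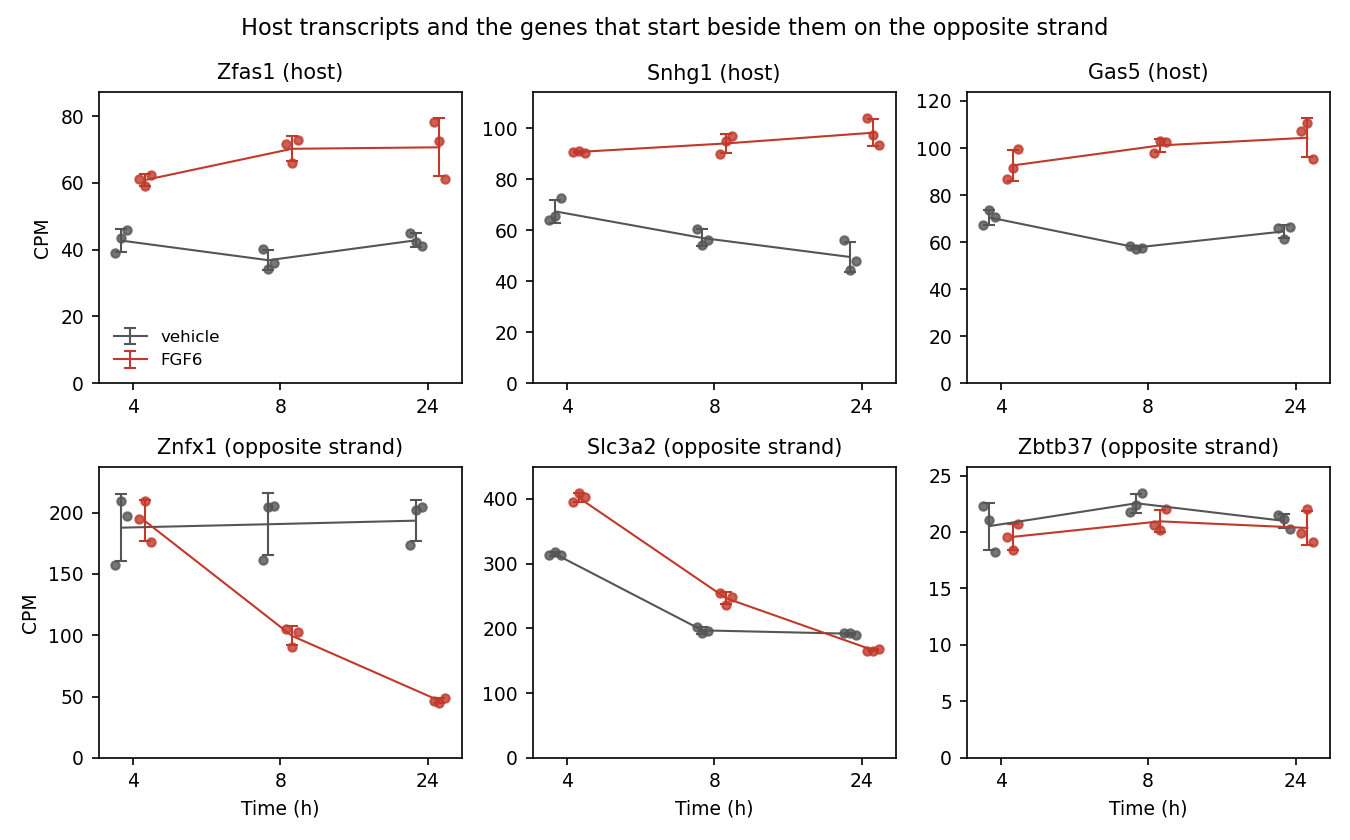
CPM (vertical axes, linear, from 0) of 3 host transcripts (top row) and of the protein-coding genes that start beside them on the opposite strand (bottom row) at 4, 8 and 24 h (equally spaced categories). Points are libraries, lines join group means, bars are the SD of 3 libraries, grey is vehicle and red is FGF6. Zfas1 and Snhg1 are higher with FGF6 at 24 h, where Znfx1 (44.7 to 48.7 CPM with FGF6) and Slc3a2 (165 to 168 CPM with FGF6) are lower, and the groups of Zbtb37 overlap.

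The snoRNAs themselves were nearly absent from the table. Of 33 annotated snoRNA genes inside the 9 host genes on the same strand, 32 had no count in any of the 18 libraries. For counting error alone, a count of 0 allows up to 3 counts in a library, the floor given above. Of the 32, 31 share exonic bases with their host through isoforms that retain the intron, so that a read over them belongs to 2 genes, and whether such reads were dropped or counted is not stated. If they were dropped, such a row can stay at 0 whatever its level, and the floor does not hold for it. Among all 1507 snoRNA genes counted, 1222 had no count, and snoRNA genes held 0.00605% of all counts. The comparisons above are thus of host RNAs and not of the snoRNAs cut from them.

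The exception was Snord87, a box C/D snoRNA in an intron of Snhg6 that shares no exonic base with it (ENSMUSG00000093178, chromosome 1, 9942463 to 9942549, minus strand). It is printed as the one snoRNA of these hosts with counts, from the GENCODE transcript, with the box C motif ATGATGA and the box D motif CTGA in capitals.
Snord87: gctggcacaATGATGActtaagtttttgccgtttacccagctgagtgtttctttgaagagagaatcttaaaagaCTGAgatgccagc

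Its counts were 10, 14 and 11 with vehicle and 21, 19 and 17 with FGF6 at 4 h, 8, 13 and 8 and 22, 13 and 13 at 8 h, and 5, 10 and 3 and 11, 7 and 16 at 24 h. The groups overlapped only at 24 h on the CPM scale. The log2 fold changes of 0.87, 0.84 and 0.96 (standard errors 0.35, 0.37 and 0.43) passed the threshold narrowly (adjusted p = 0.0319, 0.045 and 0.047). Over 14 settings, leaving out single libraries included, the call was made in 8 at 4 h, 4 at 8 h and 4 at 24 h, and the adjusted p reached 0.0938, 0.205 and 0.244. Under DESeq2 none of the 3 passed (adjusted p = 0.0649, 0.0768 and 0.0741). Reads from the intron of unspliced Snhg6 and from the mature snoRNA cannot be told apart in these counts.

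Other genes of the snoRNA pathway were described from lists set by function. Of 14 other noncoding host genes, 11 had a row and 10 were tested. Of these 10, 6 rose and 2 fell with FGF6 at 24 h (median log2 fold change 0.34, range -2.04 to 1.43), beside 35.9% and 37.9% of all genes tested. Snhg17, a host of box H/ACA snoRNAs, rose from 22.7 ± 1.17 to 44.0 ± 3.65 CPM (adjusted p = 3.22e-14), and Dancr, a noncoding RNA that hosts a box H/ACA snoRNA, from 0.392 ± 0.241 to 1.08 ± 0.341 CPM (adjusted p = 0.000751). Snhg11 fell from 0.362 ± 0.111 to 0.0852 ± 0.0565 CPM, with 2, 1 and 4 counts in the FGF6 libraries (adjusted p = 0.0113), and lost its call without vehicle 24 h replicate 1 or FGF6 24 h replicate 2 (adjusted p = 0.051 and 0.0557). At 4 and 8 h, 7 and 6 of the 10 rose and 3 fell each time. Of all genes tested, 28.6% and 32.4% rose and 34.2% and 38.4% fell at these times. This list held genes called in both directions at each time, as did all genes tested.

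Among 23 protein-coding host genes, which combine a snoRNA in an intron with a protein in the exons, 18 rose at 4 h, 20 at 8 h and 23 at 24 h, and none fell (median log2 fold changes 0.27, 0.50 and 0.63). Of all genes tested, 28.6%, 32.4% and 35.9% rose and 34.2%, 38.4% and 37.9% fell at these times. With library sizes alone as the scaling, 13 rose and 1 fell at 4 h. The 3 with the largest changes at 24 h were Nop56 (1.31), Dkc1 (1.30) and Ncl (1.18), which code for a core protein of box C/D particles, the pseudouridine synthase of box H/ACA particles and nucleolin (adjusted p = 2.52e-19, 6.59e-20 and 3.09e-22). Many of the list are ribosomal protein genes with processed pseudogenes, whose counts are uncertain where reads match several places.

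All 8 core proteins of snoRNA particles rose at each time, where 28.6%, 32.4% and 35.9% of all genes tested rose at 4, 8 and 24 h. The median log2 fold changes of the 8 were 0.66, 1.07 and 1.02. Their largest change at 24 h was that of Nhp2 (from 61.5 ± 4.56 to 171 ± 0.697 CPM, adjusted p = 1.47e-20), a subunit of box H/ACA particles. Nop56, Nop58 and Dkc1 stand both in this list and in the list of protein-coding hosts. Of 10 assembly factors, 9 rose and 1 fell at 4 and at 8 h, and 9 rose and none fell at 24 h (median 0.69). Over all genes tested 34.2%, 38.4% and 37.9% fell at 4, 8 and 24 h, and the shares that rose are given above. Ruvbl2, an ATPase of the assembly complex, had 1.09 at 24 h, the nucleolar chaperone Nolc1 0.96 and the box H/ACA factor Naf1 0.88 (log2 fold changes, adjusted p = 2.65e-19, 4.16e-19 and 3.54e-15).

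Of 10 factors of nonsense-mediated decay, the pathway known to degrade spliced host RNAs, 5 rose and none fell at 24 h, where 35.9% of all genes tested rose. Their median log2 fold change was 0.13 beside -0.02 over all genes, and with library sizes alone 5 rose and 1 fell. Smg9 had 0.65, Smg5 0.64 and Upf1, the central helicase of the pathway, 0.36 (adjusted p = 3.98e-11, 5.78e-16 and 2.63e-08). At 4 h 6 rose and 2 fell (28.6% and 34.2% of all genes), and at 8 h 5 rose and 1 fell (32.4% and 38.4%). With library sizes alone or upper-quartile factors 5 rose and 3 fell at 8 h. No test was made between the lists.

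**Figure D4:**
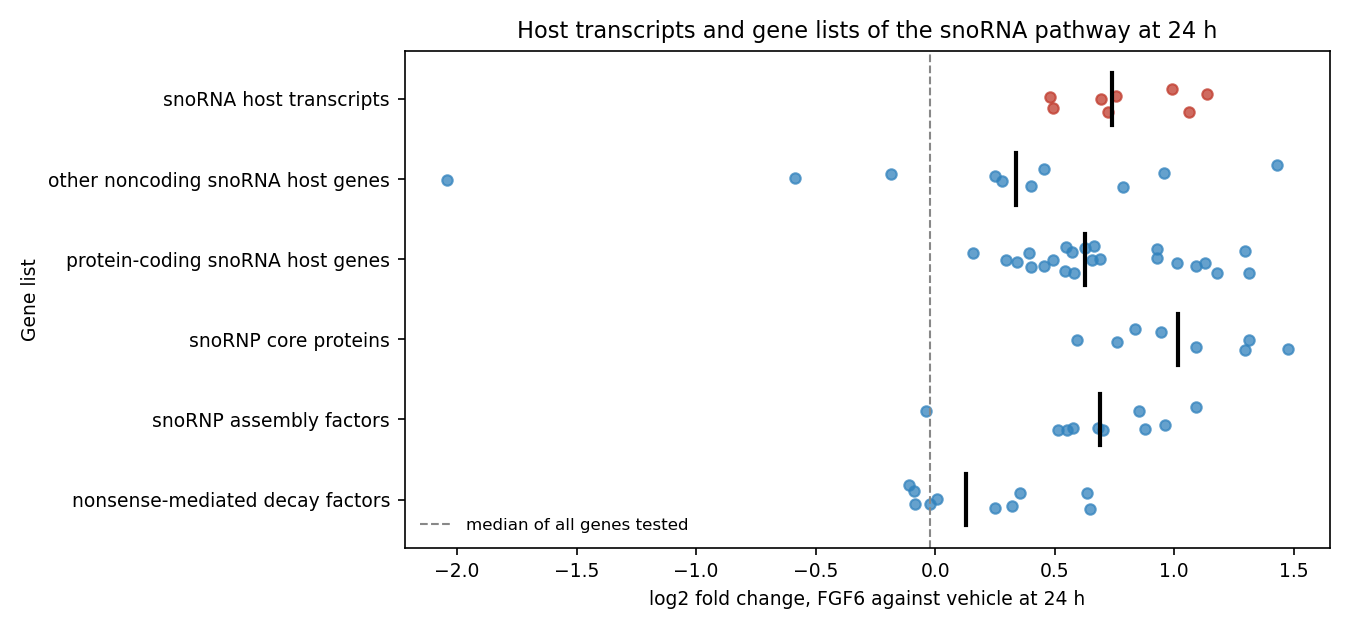
Log2 fold change of FGF6 against vehicle at 24 h (horizontal axis) for each tested gene of 6 lists (rows, points spread vertically for legibility), with the median of each list as a black bar and the median of all 15071 genes tested (-0.02) as a dashed line. The 8 host transcripts (red) lie between 0.48 and 1.14, and the list of other noncoding hosts reaches from -2.04 to 1.43.

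The 8 transcripts did not share 1 profile to the same degree. Across the 18 libraries, which fall into the 6 groups, the correlation of each with the mean of the other 7 (Pearson's r of log2 CPM, given as a description) was 0.92 to 0.96 for Gas5, Zfas1, Snhg1, Snhg5, Snhg6 and Snhg15, 0.76 for Snhg12 and 0.38 for Snhg8. Among 9425 other genes with at least 10 CPM on average, the 10 most like the mean of the 8 were Dkc1, Hmga1, Tmem199, Mrto4, Cnbp, Trmt6, Nop16, Yrdc, Tomm70a and Kti12, with r of 0.984 to 0.987 over the 18 libraries. Mrto4 and Nop16 are known for the assembly of ribosomal subunits, Trmt6, Yrdc and Kti12 for the modification of transfer RNA, and Hmga1 for chromatin architecture. Their log2 fold changes at 24 h ran from 0.78 for Cnbp to 2.64 for Hmga1. The 18 libraries are 6 groups of 3 and not independent points.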

How the data were processed

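Total RNA was isolated from 18 samples of a murine brown preadipocyte line, and libraries were sequenced on an Illumina instrument. The paper does not state whether RNA was selected by type or length when the libraries were made. Per the submitters' notes, STAR placed the reads on GRCm38.p4 and featureCounts of the Subread package summed them by gene. The authors deposited these raw counts without normalization. Tool versions, annotation release, strand setting and the handling of reads that match several places or genes are not given in the sources used here. The study tested with voom and limma at a false discovery rate of 0.25.

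From the deposited counts, edgeR 4.0.16 (R 4.3.3) kept 15071 of 48023 genes with filterByExpr, computed TMM factors and fitted quasi-likelihood models to the 6 group means over 18 libraries of 24327816 to 33471980 counts. Interaction contrasts compared the FGF6 effect between times. P-values were adjusted over all genes tested by the Benjamini-Hochberg method, with a threshold of 0.05. Standard errors are those implied by the F statistic. Positions and exon lengths came from GENCODE M21, which held 98.3% of the identifiers. Alternatives were DESeq2 1.42.0, limma 3.58.1 with voom, 2 other scalings, 2 other filters, only the time points compared, a replicate block, the threshold of the study and leaving out each library. Differences of effect and genes outside the 9 were run through these alternatives by a choice made after seeing the data. Only the edgeR fit of FGF6 against vehicle at 24 h was tested on simulated counts, with the same spread for every gene and few genes changed. The other comparisons and methods were not tested in this way.

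The 9 transcripts and all gene lists were chosen with earlier results of these data known. Of each list, the 3 genes with the largest change at 24 h among those passing were named, with the genes that start within 2000 bases of a host on the opposite strand, snoRNA genes inside hosts and the 10 genes most alike in profile. Snhg4, Snhg7 and Snhg10 were not analysed here.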

Additional observations from a re-analysis of the deposited data

Results flagged for a closer look

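Tests of the difference of the FGF6 effect between time points passed in 17 cases among the 8 transcripts, each tested in 3 comparisons. Of all genes tested, 30.6% passed for 8 h against 4 h, 53.5% for 24 h against 4 h and 45.1% for 24 h against 8 h. From 4 to 8 h the log2 fold change grew by 0.42 in Gas5, 0.42 in Zfas1, 0.29 in Snhg1, 0.50 in Snhg5, 0.49 in Snhg6, 0.55 in Snhg8, 0.66 in Snhg12 and 0.68 in Snhg15 (edgeR adjusted p from 1.1e-05 in Snhg12 to 0.0123 in Snhg1). From 4 to 24 h it grew by 0.30 in Gas5, 0.56 in Snhg1, 0.71 in Snhg5, 0.54 in Snhg6 and 0.36 in Snhg8 (edgeR adjusted p from 2.85e-08 in Snhg5 to 0.00119 in Gas5), where 28.3% of all genes tested had a larger effect at 24 h. From 8 to 24 h it grew by 0.27 in Snhg1 and 0.21 in Snhg5, and changed by -0.64 in Snhg12 and -0.68 in Snhg15 (edgeR adjusted p = 0.016, 0.0344, 1.9e-05 and 0.000377). The 3 comparisons share libraries and are not independent of each other. Groups of 3 libraries were not searched for outlying samples.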

How the results depend on the processing

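The counts of host transcripts that rose with FGF6 at 4, 8 and 24 h (7, 8 and 8) were the same with each library left out, and their fold changes kept direction and call under all alternatives, with 1 exception, Snhg8 at 4 h, described above. With library sizes alone the median of all genes at 4 h moved by -0.10 on the log2 scale, from -0.05 to -0.15. For the difference of effect between 8 and 24 h, the 4 called became 3 with DESeq2, 4 with another split (1 higher, 3 lower) with no filter or with at least 10 counts in every library, 7 at a false discovery rate of 0.25, and 2 to 5 with single libraries left out; the 2 came without vehicle 24 h replicate 2. In vehicle from 8 to 24 h the 7 called became 5 with library sizes alone and 5 to 6 with 1 library left out. In the FGF6 arm the 5 called from 4 to 8 h became 2 to 5, and the 7 from 4 to 24 h became 5 to 7. The list of other noncoding hosts had 6 called at 24 h with at least 10 counts in every library. The protein-coding hosts at 4 h had 14 with library sizes alone, 17 with upper-quartile factors and 20 at 0.25. The decay factors, with 6 called at 8 h and 5 at 24 h, had at 8 h 8 (5 higher, 3 lower) with library sizes alone or upper-quartile factors, 7 (5 higher, 2 lower) with limma and 9 (6 higher, 3 lower) at 0.25, and at 24 h 6 with library sizes alone, upper-quartile factors or the stricter filter (5 higher, 1 lower) and 8 (5 higher, 3 lower) at 0.25. The cause of these moves was not tested. Znfx1 at 4 h, not called, changed sign to -0.0576 with library sizes alone and -0.013 with upper-quartile factors, and ran from -0.0701 to 0.14 with single libraries left out. Zbtb37, not called, ran from -0.15 to 0.0098 at 4 h and from -0.0937 to 0.0082 at 24 h in the same fits, and was called lower at 4 and 8 h with library sizes alone (adjusted p = 0.0408 and 0.0363). The replicate numbers share only a number: same-numbered libraries correlated at -0.097 to 0.094, and 3 of 9 matched their own number best. With the replicate number as a block, 7, 8 and 8 transcripts were called at 4, 8 and 24 h, and all 12 counts of transcripts and 15 counts of lists were the same as without it. Depth limits Snhg3 and Snord87, at most 12 and 22 counts in a library.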
